A study of Mus musculus with 16 samples.

Results

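The response of control macrophages to lipopolysaccharide (LPS) was taken from 8 of the 16 arrays of the series, chosen by their titles: 4 arrays of LPS-treated and 4 of untreated control cells. The cells were adherent peritoneal cells of male mice of the BALB/cByJ-Lpin1fld/J strain. Control mice were heterozygotes, so both groups carry 1 copy of the fatty liver dystrophy (fld) allele of Lpin1. No array of the 8 comes from a mouse without that allele. Peritoneal cells were plated in RPMI with heat-inactivated serum, left to attach, and rinsed. They were then kept without serum for 5 h, with no LPS in the first group and with 100 ng/ml LPS in the second. The other 8 arrays come from mice labelled fld and enter here through the choice of probes tested, the shared estimate of the spread and 1 comparison given last. According to the design text 4 mice of each genotype were used, and nothing states whether the 4 arrays of a group come from separate mice. If they do not, the p-values measure only the spread between these samples, which may be technical.

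LPS is a component of the outer membrane of Gram-negative bacteria. It is handed by CD14 and MD-2 to TLR4 on macrophages, which signals through the adaptors MyD88 and TRIF to NF-kB, MAP kinases and interferon regulatory factors. In macrophages this is known to switch on cytokine genes within hours and then to change surface receptors, metabolism and protein handling.

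RNA was measured as the intensity of Cy3-labelled spots. A level below is the log2 of the processed intensity minus the log2 of that array's 75th percentile, so a level of 0 equals the 75th percentile spot. A change is the fitted log2 level with LPS minus that without. It was called, and is written as a rise or fall, when limma gave an adjusted p under 0.05 over all 17462 features tested. SE is limma's standard error, and adjusted p-values are Benjamini-Hochberg values from that fit. Between 59.4% and 63.6% of spots were well above background on these arrays. Replicates correlated at 0.984 to 0.992 across features without LPS and at 0.985 to 0.993 with LPS, against 0.956 to 0.968 between the groups. Each group was hybridised on a slide of its own, so slide and treatment cannot be told apart in any result here. In RNA from a mixed culture, fewer cells of a type and less RNA per cell cannot be told apart either.

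All 11 macrophage markers were well above background on all 8 arrays. The summed level of 9 of them, in multiples of the 75th percentile, was 199 to 271 without LPS and 100 to 118 with it, and the groups did not overlap. That sum leaves out Cd14 and Adgre1, the 2 brightest of the 11, because each lacked an unflagged spot on at least 1 array. With Cd14, which rose, left out, it does not show the direction of all 11 together. Csf1r and Cd68 fell (-1.71 and -0.96, the latter not called without untreated array 2) and Cd14 rose (1.31). Cd14, the LPS co-receptor, read 7.90, 8.01 and 8.11 on the 3 untreated arrays with an unflagged spot, and 9.54, 9.12 and 9.29 on 3 LPS arrays. Adgre1 was not called (-0.58). Other cells of the peritoneal wash were present. All 10 B cell markers and 8 of 9 mast cell markers were well above background on all 8 arrays. The summed level of 9 of the B cell markers was 111 to 189 without LPS and 97.2 to 108 with it. That sum leaves out Ighm, the brightest of the 10, which lacked an unflagged spot on untreated array 2. Ighm read 8.65, 8.54 and 8.01 on untreated arrays 1, 3 and 4 and 8.10 to 8.28 with LPS, so its groups overlapped. It was not called (-0.20), and the sum does not show the direction of all 10 together. The summed level of the 9 mast cell markers was 90.4, 95.3, 19.1 and 97.1 on untreated arrays 1 to 4, and 165 to 231 with LPS. Without Hdc the sum of the other 8 was 80.5, 88.2, 16.4 and 84.6 without LPS and 70 to 137 with it, so the groups overlapped. Untreated array 3 thus stood apart. Its chymase transcript Cma1 lay at 3.44, against 5.79, 5.86 and 5.79 on the other untreated arrays and 5.51 to 6.54 with LPS. On 46 of the 2433 features that rose and had all 4 untreated values (1.89%), that array lay at least 1 log2 unit below the rest of its group. The same held for 8, 2 and 0 features on untreated arrays 1, 2 and 4. Among features not called, it held for 122 of 11677 on untreated array 3 and 133 of 11683 on LPS array 3. LPS array 3 also had the lowest array weight of the 8 (0.50), followed by untreated array 3 (0.65). Leaving out untreated array 3 moved the fold of Il6, Inhba, Areg, Calcr and Mmp3 by over 1.5 times, and both values are given for these. Among neutrophil markers Elane, Ltf, Cxcr2 and Retnlg were not well above background on any of the 8 arrays. The part that B cells, mast cells or the share of macrophages have in any result was not tested.

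LPS changed 5143 of the 17462 features, 29.5% of those tested, of which 2537 rose (14.5%) and 2606 fell (14.9%). The 2 groups of arrays did not overlap for 5790 features (33.2%). By fitted change the rises reached further than the falls. At least 2-fold, 772 features rose (4.42%) and 755 fell (4.32%), but past 8-fold 114 rose and 26 fell, and past 16-fold 54 rose and 5 fell. These counts include features not well above background in 1 group, for which only a bound is known. Il23a and Gpnmb, for example, count past 16-fold by fitted changes of 5.75 and -5.35, but their bounds are 15.1-fold and 11.6-fold. The median change of all features was 0.03 and the median SE was 0.17.

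**Figure D1:**
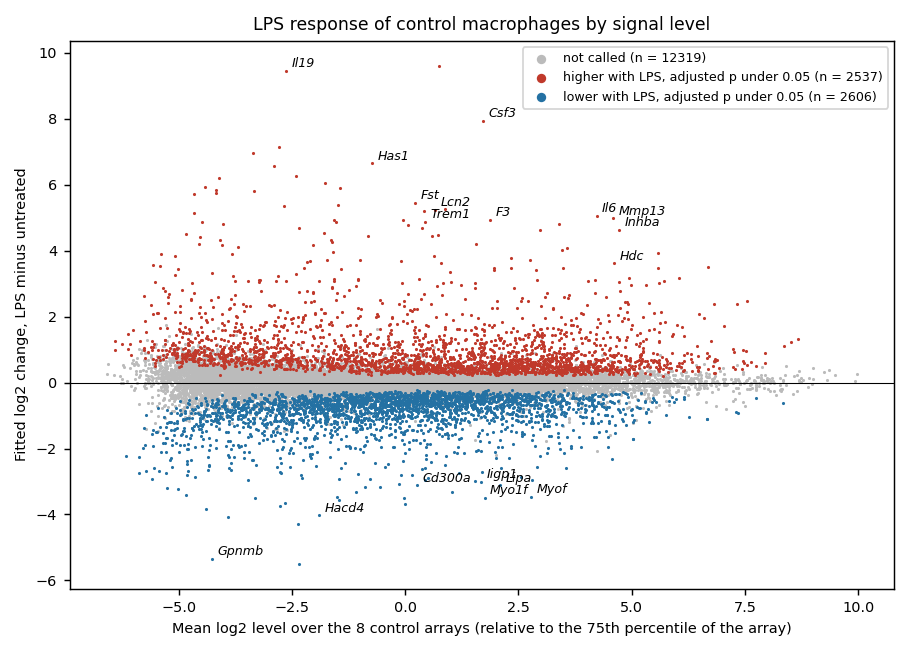
Each point is a feature, plotted by its mean log2 level over the 8 control arrays and by its fitted log2 change with LPS. Red points rose (2537), blue points fell (2606) and grey points were not called; the highest points lie further from 0 than the lowest.

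Csf3 (gene 12985), which encodes the granulocyte growth factor G-CSF, read -2.52, -2.81, -2.23 and -1.43 on untreated arrays 1 to 4 and 5.58, 5.66, 5.84 and 5.66 on LPS arrays 1 to 4. The change was 7.93 (SE 0.50, limma adjusted p = 6.1e-08). The LPS arrays lay close together and far above every untreated array. Has1 (gene 15116), a hyaluronan synthase of the plasma membrane, read -4.04, -4.11, -4.37 and -3.70 without LPS and 2.46, 2.76, 2.32 and 2.84 with it, a rise of 6.65 (SE 0.31, limma adjusted p = 5.5e-09). Fst, the activin-binding protein follistatin, rose by 5.45 (SE 0.37), and Prok2, the secreted peptide prokineticin 2, by 5.26 (SE 0.57). Prok2 varied among LPS arrays, from the lowest on array 1 through 3.15 and 4.48 to 4.90 on array 3, and none came near the untreated arrays. Its rise was 5.93 without LPS array 1. Lcn2, which binds bacterial siderophores, rose by 5.23 (SE 0.34), the collagenase Mmp13 by 4.98 (SE 0.38), and F3, tissue factor, by 4.93 (SE 0.33). Cstdc6, a cystatin-type protease inhibitor, rose by 4.68 (SE 0.45).

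Some of these values moved when untreated array 3 was left out. Il6 (gene 16193) lay at 2.69, 2.30, -0.60 and 2.40 without LPS and at 7.15, 6.77, 6.20 and 6.86 with LPS. Its rise of 5.05 (SE 0.53) became 4.28 without that array and stayed called. F3 went from 4.93 to 4.57 and Il1a from 4.80 to 4.52. For Calcr, the calcitonin receptor, array 3 was the high one: -4.67, -4.54, -2.12 and -4.77 without LPS against 1.44, 0.88, 0.48 and 0.80 with it. Its rise of 4.92 (SE 0.57) became 5.56 without that array. Its second probe rose by 2.48.

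Receptors and adhesion molecules were among the other leading rises. Trem1 (gene 58217), an activating receptor that amplifies responses to microbes, read -3.57, -2.33, -2.20 and 0.07 without LPS and 2.68, 2.82, 3.12 and 2.86 with it. The untreated arrays were widely spread and the LPS arrays were not, and the rise was 4.88 (SE 0.52), or 5.57 without untreated array 4. Its second probe rose by 3.43. Slamf1, a self-binding receptor of leukocytes, read -3.44, -4.27, -3.94 and -4.18 and then 0.77, 0.65, 1.09 and 1.13, a rise of 4.87 (SE 0.27). Itgb8, the integrin chain known to release active TGF-beta, rose by 4.94 (SE 0.35), with all 4 of its probes called. Akap12, a scaffold for protein kinase A, rose by 5.20 (SE 0.43).

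Hacd4 (gene 66775), a dehydratase of very long chain fatty acid synthesis, read 0.76, 0.45, -0.61 and -0.19 without LPS and -3.19, -3.65, -4.26 and -4.56 with it, a change of -4.02 (SE 0.31, limma adjusted p = 3.7e-07). Myo1f, a leukocyte myosin, read 3.31 to 3.65 and then -0.33 to 0.22 (-3.49, SE 0.21). Myof, the membrane-repair protein myoferlin, read 4.17 to 4.87 on 3 untreated arrays, the spot on array 1 being excluded by its quality flag, and 0.56 to 1.33 with LPS (-3.46, SE 0.23). Tmem86a, a lysoplasmalogenase, changed by -3.49 (SE 0.28) and Rab7b, a late endosomal GTPase, by -3.33 (SE 0.26). Lipa, the acid lipase that frees cholesterol from its esters in lysosomes, read 3.86, 3.56, 3.99 and 3.19 and then 1.18, 0.51, 0.16 and 0.33 (-3.11, SE 0.34). A second probe of Lipa fell by less (-1.88). No LPS array reached the untreated range in these 6 genes, which was a condition of their choice and not a separate result.

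The other falls of this size included Abcc3, an exporter of organic anions (-3.31), Syngr1, a vesicle protein (-3.16), Cd300a, an inhibitory receptor (-3.12), Ahrr, the repressor of the aryl hydrocarbon receptor (-3.07), Gngt2, a G protein chain (-2.96), and the lipoxygenase Alox15 (-2.95). Cd300a had a second probe, which was dimmer and not called (-0.23). A pair of genes known as interferon-inducible also fell at this size. Iigp1, an immunity-related GTPase, read 4.28, 2.86, 2.74 and 2.82 without LPS and 0.74, 0.12, -0.43 and 0.25 with it (-3.01, SE 0.60), and Ifi44l changed by -2.99 (SE 0.46).

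Some genes crossed the background, and for these the size is a bound: the bright group's mean is set against a floor, which on each dim array is the lowest signal above background or the dim probe itself, whichever is higher. For 60 features all 4 LPS arrays and none of the untreated ones were well above background, and 81 were of the reverse kind. All of the 60 were called, and 70 of the 81. The definition itself favours a call, so these shares are no separate support. Il19, a cytokine of the IL-10 family, rose at least 159-fold. Tpbpa and Tpbpb, trophoblast-specific proteins that are close copies and may share signal, rose at least 40.3-fold and 18.5-fold. Slc1a2, a glutamate transporter, rose at least 27.6-fold, the IL-23 subunit Il23a at least 15.1-fold, and the IL-36 cytokine gene Il1f9 at least 12.1-fold on its brighter probe. A second probe of Il1f9 gave a smaller fitted rise (2.93). Sptssb, a small subunit of serine palmitoyltransferase, rose at least 10.6-fold. Armcx4 (at least 15.4-fold), the serine protease gene Prss46 (at least 9.53-fold) and the Wnt antagonist Nkd2 (at least 9.01-fold) complete the 10 largest.

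In the other direction Gpnmb, a membrane glycoprotein of lysosomes, fell at least 11.6-fold and Tlr8, an endosomal receptor of single-stranded RNA, at least 3.78-fold. Cxcl12, a chemokine of stromal cells, fell at least 3.47-fold, Angpt2, a vascular growth factor, at least 3.1-fold, Klrk1, the receptor NKG2D, at least 2.76-fold, and Clec1b, a platelet and myeloid lectin, at least 2.62-fold. Kctd12b, Mettl7a2, Abca9 and Oit3 fell at least 4.79-fold, 3.86-fold, 3.06-fold and 2.61-fold. Among these 10, the calls on Kctd12b, Cxcl12, Angpt2, Abca9, Oit3, Klrk1 and Clec1b were lost when the background was corrected by normexp with extreme local backgrounds reset. Under normexp without that reset the change of 8 of the 10, all but Gpnmb and Tlr8, turned positive and was not called.

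The promoters of the leading genes were searched for letters known as binding sites of LPS-activated factors: the NF-kB consensus, the AP-1 site TGANTCA and the cyclic AMP response element (CRE) TGACGTCA. RefSeq's table for GRCm38.p6 gave the 250 bases before the start of 20 of the 25 leading genes that rose and 16 of the 25 that fell. A match was found in 9 of those 20, with the close copies Tpbpa and Tpbpb counted separately, and in 2 of those 16. The share of all promoters with any of the 3 motifs in this window was not computed. These counts therefore have no background beside them. For the first 6 of the 9 by fitted change, the 250 bases are printed 5′ to 3′ on the gene's strand, ending at the base before the start. They are shown because they let the position and surroundings of each match be read directly. Capitals mark the matches.
Il19: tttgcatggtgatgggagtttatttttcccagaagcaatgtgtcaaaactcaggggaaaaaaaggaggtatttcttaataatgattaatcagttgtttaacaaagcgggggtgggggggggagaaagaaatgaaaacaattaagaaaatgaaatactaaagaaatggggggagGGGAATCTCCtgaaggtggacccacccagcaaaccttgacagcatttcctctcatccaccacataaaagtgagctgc
Tpbpa: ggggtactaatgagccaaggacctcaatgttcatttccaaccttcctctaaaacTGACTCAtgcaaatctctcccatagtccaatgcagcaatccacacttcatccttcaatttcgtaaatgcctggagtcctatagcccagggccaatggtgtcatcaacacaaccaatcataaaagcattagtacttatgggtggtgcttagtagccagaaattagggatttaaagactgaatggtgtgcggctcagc
Has1: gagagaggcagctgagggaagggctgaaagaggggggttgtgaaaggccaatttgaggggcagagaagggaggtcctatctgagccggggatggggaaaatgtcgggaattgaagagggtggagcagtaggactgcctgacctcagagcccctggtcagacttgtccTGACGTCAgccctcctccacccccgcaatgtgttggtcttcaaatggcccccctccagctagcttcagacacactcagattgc
Tpbpb: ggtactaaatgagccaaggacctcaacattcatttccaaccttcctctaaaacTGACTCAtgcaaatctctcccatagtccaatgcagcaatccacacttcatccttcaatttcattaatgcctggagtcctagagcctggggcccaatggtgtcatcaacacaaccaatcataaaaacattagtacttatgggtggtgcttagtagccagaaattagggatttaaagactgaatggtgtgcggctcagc
Prok2: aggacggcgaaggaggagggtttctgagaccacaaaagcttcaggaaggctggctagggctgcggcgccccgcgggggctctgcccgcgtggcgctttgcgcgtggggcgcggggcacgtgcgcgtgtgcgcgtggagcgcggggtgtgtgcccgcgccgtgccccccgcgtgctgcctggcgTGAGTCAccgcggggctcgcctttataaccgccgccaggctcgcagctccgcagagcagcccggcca
Il6: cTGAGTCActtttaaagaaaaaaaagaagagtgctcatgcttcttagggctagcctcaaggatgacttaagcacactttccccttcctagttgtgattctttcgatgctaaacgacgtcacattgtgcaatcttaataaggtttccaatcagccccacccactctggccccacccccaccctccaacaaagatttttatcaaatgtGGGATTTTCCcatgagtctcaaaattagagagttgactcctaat
The Il19 window (chr1:130940116-130940365, minus strand) holds an NF-kB match 77 to 68 bases before the start. Tpbpa (chr13:60941937-60942186, minus strand) and Tpbpb (chr13:60904848-60905097, minus strand) hold the same AP-1 letters TGACTCA at 196 to 190 and 197 to 191 bases before the start. Has1 (chr17:17855189-17855438, minus strand) holds the full CRE at 83 to 76 bases. Prok2 (chr6:99726393-99726642, minus strand) holds an AP-1 match at 67 to 61 bases. Il6 (chr5:30012864-30013113, plus strand) holds an NF-kB match at 44 to 35 bases and an AP-1 match at 249 to 243 bases. No matches of the 3 motifs overlap in these windows. A match is a description of letters, not a measured site.

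Over the whole table, 11230 of the 14067 features with a symbol matched a promoter of 250 bases before to 50 after the start, and 2165 of them had more than 1. Both strands were searched. The NF-kB consensus was found for 22.2% of the 162 genes with a called change of at least 2, for 429 of 3297 called genes in between, 11.3% of genes not called and 8.79% of the 91 with a change of at most -2. It stood at 9.55% over all 27025 genes of the table. The AP-1 site was found for 17.9% of the strong rises and 19.8% of the strong falls, against 6.34% in between, 6.80% of genes not called and 8.97% over the table. The TATA box (TATAAA) had the same pattern, at 21.6% and 22.0% against 9.74%, 10.9% and 15.7%. The CRE was found for 4.94% of the strong rises, 0 of the 91 strong falls, 3.46% in between, 3.18% of genes not called and 2.03% over the table. For the interferon-stimulated response core the shares were, in the same order, 7.41%, 5.49%, 3.37%, 3.84% and 3.99%. For the E-box CACGTG they were 9.26%, 7.69%, 12.6%, 10.5% and 8.09%, so strong changes in either direction lay below the other measured genes. These shares carry no test.

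**Figure D2:**
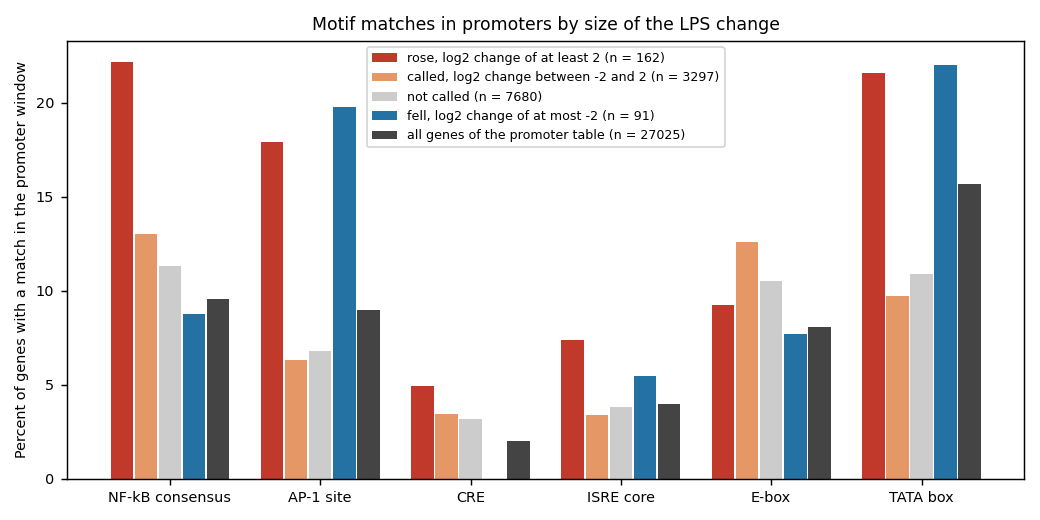
Bars give the percent of genes with at least 1 match to each motif, on either strand, in the window from 250 bases before to 50 after the start, for genes grouped by their called change. The NF-kB consensus is most frequent among strong rises (22.2%), and the AP-1 site is frequent among strong rises (17.9%) and strong falls (19.8%) alike.

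Secreted growth factors were the first list. Of 43 measured, 16 rose and 7 fell, against 14.5% and 14.9% of all features, and their median change was 0.30. The counts of every list below are to be read against these shares of all features. Activin subunits were among the rises. Inhba (gene 16323) read 3.16, 3.72, 0.40 and 2.36 without LPS and 7.31, 7.01, 6.61 and 7.25 with it, a rise of 4.63 (SE 0.61) that became 3.96 without untreated array 3. Inhbb rose by 6.05 (SE 0.38), from signals that only 2 of the 4 untreated arrays placed above background, and a second probe rose by 1.20. Fst, which neutralises activins, rose with them (above). The EGF receptor ligands Areg and Hbegf rose by 3.69 (SE 0.68) and 3.64 (SE 0.35), and Areg by 3.05 without untreated array 3. Igf1 fell (-1.26, SE 0.22) on its brightest probe and by up to -4.96 on its 2 dimmer ones, and Tgfb2 fell (-1.68, SE 0.34).

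Clotting and matrix genes followed. Of 26 coagulation and fibrinolysis genes 12 rose and 3 fell, with a median of 0.42. F3, the trigger of clotting, read -0.24, -0.26, -1.67 and -0.19 and then 3.87, 4.10, 4.68 and 4.72. Plaur, the urokinase receptor, rose by 2.08 (SE 0.19) and the protein C receptor Procr by 1.62 (SE 0.36). F7, the partner of tissue factor, fell (-1.60, SE 0.27), as did the anticoagulant Pros1 (-1.22, SE 0.17). Of 34 hyaluronan and matrix genes 13 rose and 2 fell (median 0.46). Beside Has1, the hyaluronan-linking protein Tnfaip6 rose at least 4.06-fold, the hyaluronan-bound Itih3 by 3.22 (SE 0.21) and the crosslinking enzyme Loxl2 by 3.77 (SE 0.24).

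Metalloproteinases moved both ways, 7 of 33 up and 5 down. Mmp3, a stromelysin, rose by 5.90 (SE 0.69) from a level above background on 2 of 4 untreated arrays. Its untreated arrays were far apart, and the rise was 5.25 without untreated array 1 and 6.79 without array 3. Adamts9 rose by 3.96 (SE 0.44), and by 1.85 on the probe that moved least. Mmp8, another collagenase, fell (-2.88, SE 0.30). The inhibitors parted: Timp1 rose by 1.99 (SE 0.43) while Timp2 fell from 3.89, 4.56, 3.95 and 4.42 to 1.72, 1.66, 1.69 and 1.47 (-2.57, SE 0.31). The fibroblast markers Lum, Pdgfrb and Twist2 rose (2.53, 2.11 and 1.63) while Col3a1 fell (-1.04). Only 1 of 4 untreated arrays placed Lum above background and only 1 of 4 LPS arrays Col3a1, so their sizes rest on dim signals. The summed level of 6 of the 8 fibroblast markers was 0.59 to 1.01 without LPS and 0.48 to 1.23 with it. Twist2 and Col3a1 lost their calls in several alternatives, and the part of fibroblasts in the matrix results was not tested.

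Of 30 antimicrobial and acute phase genes 6 rose, 20% against 14.5% of all features, and 1 fell. All 6 rises passed 2-fold. S100a8, a subunit of calprotectin, read -0.16, 0.11, 0.93 and 0.01 and then 3.09, 3.91, 3.91 and 3.82 (3.46, SE 0.24), and the cathelicidin Camp rose by 3.07 (SE 0.28). Both are also on the neutrophil marker list. The other neutrophil markers did not rise: S100a9 read -3.31 to -1.10 without LPS and -5.07 to -3.06 with it, Mpo -3.16 to -2.44 over all 8 arrays, and Elane, Ltf, Cxcr2 and Retnlg were at background. Of 24 complement genes 3 rose and 4 fell, near the background share. Hc, which encodes complement C5, rose by 2.20 (SE 0.31), and C3ar1 and Vsig4, receptors of C3 fragments, fell (-2.10, SE 0.26 and -1.95, SE 0.50).

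Of 20 purine receptors and enzymes 8 rose and 5 fell. Adora2b (gene 11541), a receptor that couples adenosine to cyclic AMP, read 0.94, 1.18, 0.14 and 1.28 without LPS and 4.47, 4.59, 4.68 and 4.69 with it (3.72, SE 0.24, limma adjusted p = 9.7e-08). Adora2a, Adora3, the UTP receptor P2ry2 and the NAD-consuming ectoenzyme Cd38 rose by 1.32 (SE 0.19), 1.73 (SE 0.25), 1.61 (SE 0.19) and 1.76 (SE 0.17). Of the 2 probes of Adora2a the brighter rose and the other was not called (-0.06). Nt5e, which makes adenosine outside the cell, read 0.71, 1.72, -0.02 and 1.81 and then -1.75, -1.04, -0.70 and -0.80 (-2.13, SE 0.34). The ATP-gated channel P2rx7 fell (-1.55, SE 0.34), as did P2ry14, a receptor of UDP-glucose (-2.18, SE 0.53).

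Of 26 paired and Siglec-type receptors 7 rose and 9 fell (median -0.30). Beside Trem1, Trem3 rose by 2.14 (SE 0.29), Pilra by 1.96 (SE 0.22) and Pilrb1 by 1.44 (SE 0.22). Lair1, an inhibitory collagen receptor, fell from -0.34, -0.44, 0.19 and 0.13 to -2.63, -2.93, -2.77 and -2.51 (-2.59, SE 0.33), and Cd244a fell as well (-2.06, SE 0.33). No C-type lectin of 18 measured rose and 7 fell (median -0.32). Clec4a2 (-2.73, SE 0.45), Clec4b1 (-2.60, SE 0.35), Clec4n, the mannan receptor dectin-2 (-2.58, SE 0.52), and Clec4a3 (-2.14, SE 0.47) are neighbours of 1 gene family whose copies may share signal. Of 13 Fc receptor genes 2 rose (15.4%, near the 14.5% of all features) and none fell. The rises were the inhibitory Fcgr2b (1.32, SE 0.29) and the shared signalling chain Fcer1g (0.61, SE 0.17). Fcer1g lost its call without untreated array 4. Fcgr1 was not called (-1.22, limma adjusted p = 0.0555).

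Of 18 costimulatory and checkpoint ligands, which set how T cells respond to antigen, 6 rose and 3 fell. Cd80 rose by 3.05 (SE 0.35), Tnfsf9 by 2.36 (SE 0.33), Cd274, the checkpoint ligand PD-L1, by 1.49 (SE 0.21), and Cd40 by 1.11 (SE 0.28). Cd86 was not called (0.67, SE 0.25, limma adjusted p = 0.0612). Vsir, the checkpoint protein VISTA, and Cd48 fell (-1.11, SE 0.22 and -1.29, SE 0.21). Of 25 receptors and bridging proteins for apoptotic cells 3 rose and 8 fell (median -0.35). Gas6 (-1.63, SE 0.29) and Pros1, the ligands of the TAM receptors, and the scavenger receptor Cd36 (-1.54, SE 0.20) fell, while Abca1, an exporter of cholesterol, rose by 1.19 (SE 0.18). Mertk, the main TAM receptor of macrophages, was not called (-0.82, SE 0.65). Without untreated array 3 the change of Gas6 was -1.35.

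Genes that mark large peritoneal macrophages, the resident cells of this cavity, had a median of -0.58, with 3 of 23 up and 6 down. Alox15, Ednrb (-1.97, SE 0.28) and Vsig4 were among the falls. The factor Gata6, which defines these cells, was not called (-0.35), nor were the phagocytic receptor Timd4 (-1.28) and Adgre1, the F4/80 antigen (-0.58). With only the 8 control arrays in the fit, 11 of the 23 fell, and with array weights 13. Among integrins and adhesion molecules 11 of 35 rose and 3 fell. Vcam1 rose by 2.01 (SE 0.55) and the fibronectin receptor chain Itga5 by 1.13 (SE 0.17), and Selplg, the ligand of selectins, fell from 3.84 to 4.47 down to 2.26 to 2.72 (-1.64, SE 0.13).

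**Figure D3:**
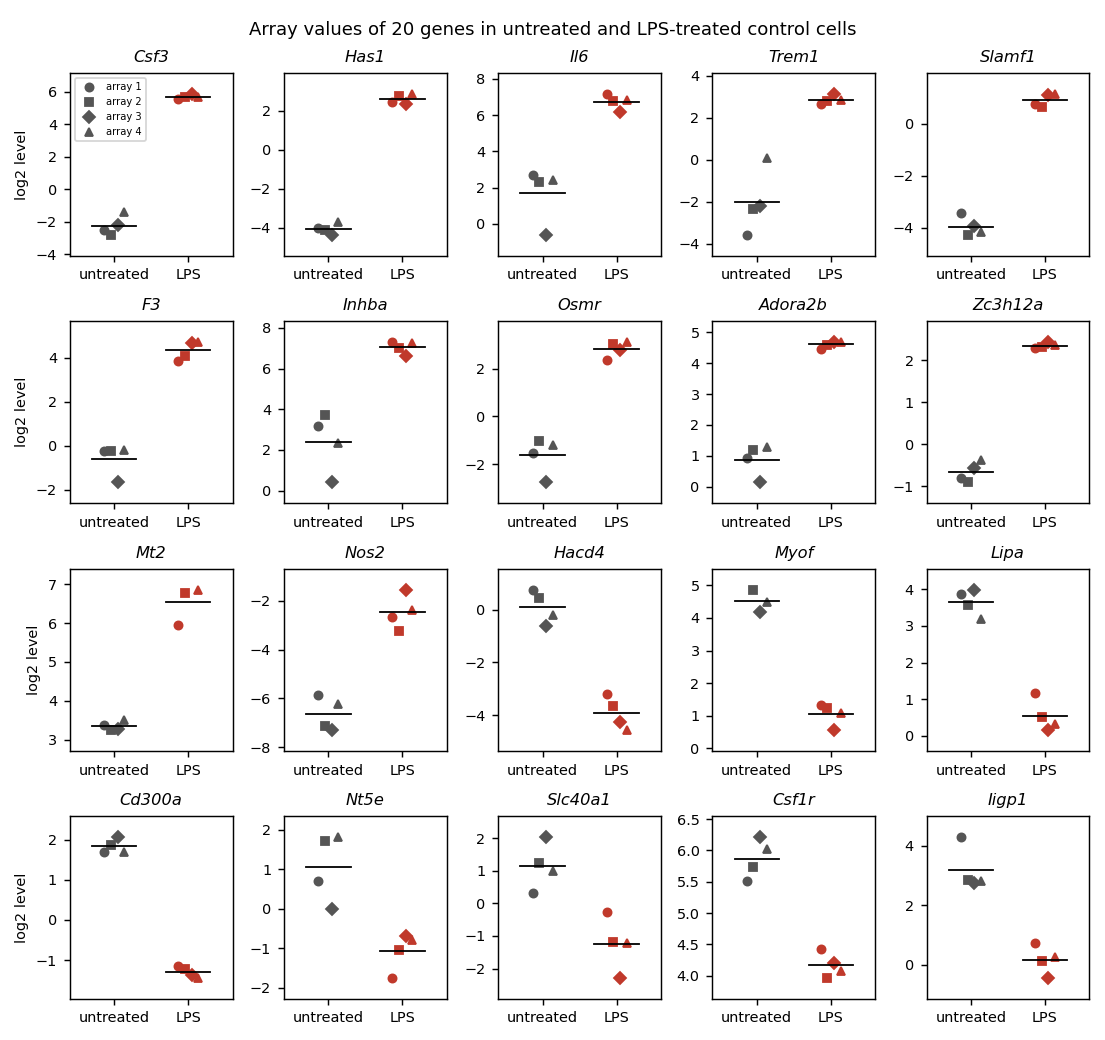
Log2 levels of 20 genes on the 4 untreated (grey) and 4 LPS (red) control arrays, the marker shape giving the array number and the black bar the group mean; flagged spots are left out. The groups do not overlap in any panel, and for the leading genes this was a condition of their choice. Untreated array 3 (diamond) is the lowest untreated value for Il6, F3, Inhba and Osmr.

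Cytokine receptors and their JAK and STAT signalling genes were raised in 16 of 45 cases and lowered in 7 (median 0.28). Osmr (gene 18414), the receptor chain of oncostatin M, read -1.52, -1.01, -2.75 and -1.20 and then 2.35, 3.03, 2.77 and 3.11 (4.44, SE 0.45, and 4.06 without untreated array 3). The feedback inhibitors Socs3 and Cish rose by 2.37 (SE 0.24) and 2.24 (SE 0.32), the kinase Jak2 by 2.11 (SE 0.16) and the IL-4 receptor chain Il4ra by 2.05 (SE 0.24). Csf1r, the receptor of the macrophage growth factor, fell from 5.51, 5.74, 6.21 and 6.03 to 4.42, 3.97, 4.20 and 4.08 (-1.71, SE 0.43), and Il6ra fell (-0.86, SE 0.18).

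Of 40 MAP kinase genes 14 rose and 7 fell, and median scaling left 9 rises. Map3k8 (Tpl2), the kinase that TLR4 uses to reach ERK, read -1.20, -1.61, -1.18 and -1.21 and then 0.47, 0.54, 1.08 and 0.69 (2.00, SE 0.16). Map4k4 rose by 2.41 (SE 0.15) on all 3 of its probes and the ribosomal S6 kinase Rps6ka2 by 1.29 (SE 0.16). The p38 kinase Mapk14 (-1.18, SE 0.23) and the ERK kinase Mapk3 (-0.77, SE 0.16) fell. Of 35 TRAF, Pellino and related ubiquitin ligases 10 rose and 3 fell, with Traf1 up by 2.39 (SE 0.22) and Rnf128 down (-2.29, SE 0.30). Of 24 deubiquitinases 3 rose and 3 fell (12.5% each, near the shares of all features). Tnfaip3 (A20), the inhibitor of NF-kB signalling, stood out at 2.79 (SE 0.14).

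Cyclic AMP genes moved in both directions, 9 of 34 up and 9 down. The phosphodiesterases Pde4b and Pde10a rose by 2.06 (SE 0.20) and 1.99 (SE 0.25), as did the CREB-related repressor Crem (1.45, SE 0.24). The cyclase Adcy4 fell (-3.65, SE 0.34), being above background on all 4 untreated and 2 LPS arrays. Of 36 TGF-beta pathway genes 14 rose and 3 fell. Id1 and Id3, inhibitors of differentiation factors, rose by 2.49 (SE 0.49) and 1.76 (SE 0.27), the inhibitory Smad7 by 1.75 (SE 0.17) and the co-receptor Eng by 1.66 (SE 0.22), while the pseudoreceptor Bambi fell (-1.07, SE 0.23). Among 31 Notch genes (7 up, 6 down) the target Hes1 rose by 1.48 (SE 0.21) and Notch1 by 0.75 (SE 0.14). Of 43 Wnt genes 7 rose and 6 fell (16.3% and 14%, near the shares of all features). The ligand Wnt4 rose by 4.10 (SE 0.31), being above background on 1 of 4 untreated arrays, so that its size rests on dim signals, and Wnt2 fell (-2.91, SE 0.30). Of 37 semaphorin, plexin, ephrin and netrin genes 5 rose (13.5%, against 14.5% of all features) and 3 fell. The rises included the ephrin receptors Epha4 (3.11, SE 0.19) and Epha2 (2.11, SE 0.34) and the Slit receptor Robo2 (2.93, SE 0.29).

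Of 40 channel genes 9 rose and 8 fell (42.5% called, against 29.5% of all features), with the lysosomal channel Mcoln2 up by 1.97 (SE 0.21) and the oxidant-sensing Trpm2 down (-2.55, SE 0.48). Of 59 actin genes 18 rose and 3 fell. Marcks and Marcksl1, which tie actin to the membrane, rose by 1.97 (SE 0.17) and 1.94 (SE 0.27), and the bundling protein Fscn1 by 1.19 (SE 0.16). Abi3 fell (-2.28, SE 0.25). GTPase activating proteins of the Arhgap family numbered 29, of which 10 fell and 3 rose, led by Arhgap6 (-1.55, SE 0.30) and Arhgap10 (-1.47, SE 0.26).

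**Figure D4:**
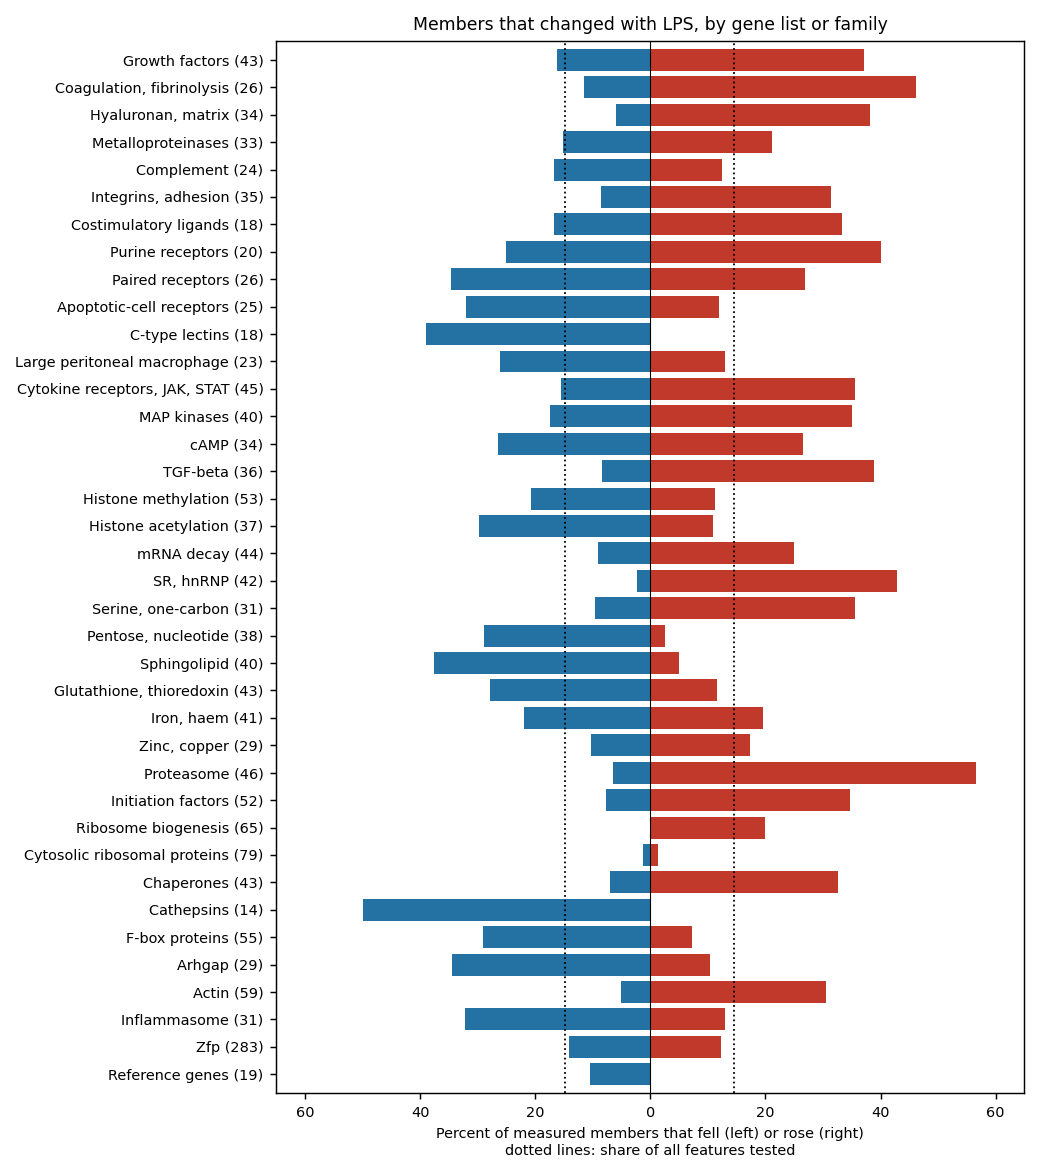
Bars give the percent of measured members of 38 gene lists or families that rose (red, right) or fell (blue, left), with the number measured in brackets; dotted lines mark the shares over all features, 14.5% and 14.9%. Proteasome subunits have the longest bar to the right (26 of 46) and cathepsins the longest to the left (7 of 14).

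Histone methylation genes rose in 6 and fell in 11 of 53 cases, and histone acetylation genes rose in 4 and fell in 11 of 37 (median -0.20). Kdm6b, the inducible demethylase of lysine 27 of histone H3, was among the rises at 0.87, 0.65, 0.91 and 0.67 and then 2.37, 2.23, 2.15 and 2.22 (1.47, SE 0.18). Setd7, a lysine methyltransferase, fell from 1.29, 1.31, 1.48 and 1.57 to -0.06, 0.13, -0.01 and 0.02 on all 3 of its probes (-1.39, SE 0.13). Hdac9 rose by 1.21 (SE 0.15), and the coactivator Ncoa1 and the deacetylases Hdac5 and Sirt5 fell (each -0.88, SE 0.09, 0.15 and 0.13). Nuclear receptors rose in 5 and fell in 7 of 30 cases, the falls including the oxysterol receptor Nr1h3 (-1.45, SE 0.29) and Pparg (-1.14, SE 0.26).

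Of 44 mRNA decay genes 11 rose and 4 fell, led by Zc3h12a (regnase-1), an RNase that degrades cytokine transcripts, from -0.81, -0.91, -0.56 and -0.38 to 2.30, 2.32, 2.44 and 2.36 (3.02, SE 0.16). Leaving out single arrays gave 4 to 10 rises, with 4 without LPS array 4 and 5 without untreated array 2. Of 42 SR and hnRNP splicing factors 18 rose and 1 fell (median 0.25). None of the rises reached 2-fold: Ptbp1 (0.70, SE 0.09) and Tra2b (0.62, SE 0.08) are examples, and the kinase Srpk2 fell (-0.53, SE 0.09). Quantile normalization gave 7 rises and median scaling 8.

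The arginine and nitric oxide list rose in 7 and fell in 4 of 27 cases. Nos2 did not clear the background on the untreated arrays and read -2.66, -3.24, -1.54 and -2.36 with LPS, at least 6.79-fold higher. The arginine importer Slc7a2 rose by 3.47 (SE 0.36), and Oaz2 and Smox of the polyamine pathway by 1.54 (SE 0.15) and 1.34 (SE 0.21). Arg1 and Ass1 were not called (0.54, SE 0.75 and 0.08, SE 0.23). Serine and one-carbon genes rose in 11 and fell in 3 of 31 cases (median 0.26). Cth, which makes cysteine, rose by 2.47 (SE 0.25), and Asns, Mat2a and the mitochondrial Mthfd2 by 0.85, 0.81 and 0.79 (SE 0.15, 0.12 and 0.15). Glul, glutamine synthetase, was among the falls (-1.49, SE 0.15). Tyms, thymidylate synthase, rose by 1.72 (SE 0.20) on the brightest and 1 more of its 3 probes.

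Of 38 pentose phosphate and nucleotide genes 11 fell and 1 rose (median -0.22). Adssl1 (-1.91, SE 0.21), the salvage kinase Dck (-1.77, SE 0.21) and Samhd1, which destroys deoxynucleotides (-1.40, SE 0.30), led the falls, and the mitochondrial kinase Ak4 rose by 1.29 (SE 0.22), being above background on 3 of 4 untreated arrays. TCA cycle genes rose in 4 and fell in 9 of 40 cases. Both NADP isocitrate dehydrogenases fell, Idh1 from -1.53, -1.20, -0.50 and -1.12 to -2.57, -2.82, -2.76 and -2.96 (-1.69, SE 0.26) and Idh2 by a like amount (-1.62, SE 0.22). Acod1, which makes itaconate, rose by 1.02 (SE 0.26) over values on only 2 untreated arrays, and its second probe was not called (0.76). It lost its call without untreated array 2.

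Of 40 sphingolipid genes 15 fell and 2 rose (median -0.31). The kinase Sphk1, which makes sphingosine 1-phosphate, went up from 1.74, 1.68, 0.38 and 1.54 to 3.41, 3.83, 3.88 and 4.07 (2.46, SE 0.28, and 2.14 without untreated array 3). Its receptors S1pr1 (-1.36, SE 0.17) and S1pr2 (-1.92, SE 0.25), the ceramide synthase Cers6 (-1.28, SE 0.16) and the ceramidase Asah1 (-1.09, SE 0.25) fell. One further probe of S1pr2 was near 0 (-0.06). Glutathione genes fell in 12 and rose in 5 of 43 cases (median -0.21). The rises included the cystine importer Slc7a11 (1.53, SE 0.21), the glutathione-degrading Chac1 (1.86, SE 0.22) and the glutaredoxin Glrx (2.14, SE 0.29). The synthase Gss (-1.61, SE 0.26) and the transferases Gsta3 (-2.08, SE 0.47) and Gstm1 (-1.66, SE 0.28) fell.

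Of 41 iron and haem genes 8 rose and 9 fell. Steap4, a metalloreductase, rose at least 8.72-fold and the haem transporter Flvcr2 by 1.92 (SE 0.21). Slc40a1, ferroportin, the iron exporter, fell from 0.31, 1.23, 2.03 and 0.99 to -0.27, -1.19, -2.28 and -1.21 (-2.38, SE 0.50), and Hfe, a regulator of hepcidin, fell (-2.43, SE 0.33). Hmox1, haem oxygenase, was not called (-0.55, SE 0.23). Of 29 zinc and copper genes 5 rose and 3 fell (17.2% and 10.3%, against 14.5% and 14.9% of all features). The zinc importer Slc39a14 went from 0.80, 1.02, 0.55 and 1.49 to 3.62, 3.96, 3.68 and 4.07 (2.87, SE 0.19). The metallothioneins Mt2 and Mt1 rose by 3.17 (SE 0.21) and 1.79 (SE 0.20), and the zinc exporter Slc30a1 fell (-1.18, SE 0.27), with a second probe not called (-0.48). Of 254 solute carriers 44 rose and 48 fell (36.2% called), with the lactate carrier Slc16a1 up by 2.47 (SE 0.17) and the amino acid carrier Slc43a2 down (-2.81, SE 0.43). Retinoid genes rose in 4 and fell in 3 of 17 cases, Aldh1a2, which makes retinoic acid, by 1.58 (SE 0.27).

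Of 46 proteasome subunits 26 rose and 3 fell (median 0.37). Psma6, a core subunit, read 4.03, 3.90, 4.21 and 3.82 and then 4.99, 4.86, 5.23 and 5.11 (1.06, SE 0.17) and was alone among the rises past 2-fold. Psmc4 and Psmd12 of the regulatory cap each rose by 0.71 (SE 0.12 and 0.11). The falls were Psma8, known from testis (-1.23, SE 0.34), the immunoproteasome subunit Psmb9 (-0.61, SE 0.21) and the activator Psme4 (-0.42, SE 0.11). Psmb9 lost its call when any of 5 single arrays (untreated 1 or 3, LPS 2, 3 or 4) was left out. Quantile normalization gave 11 rises, median scaling 10 and normexp without a reset of extreme local backgrounds 0. Of 14 cathepsins, the proteases of lysosomes, none rose and 7 fell (median -0.41), among them Ctss (-0.88, SE 0.19) and Ctso (-0.67, SE 0.11). There were 3 falls without untreated array 2 or LPS array 3, and 4 without untreated array 1 or LPS array 4. Proton pump subunits fell in 5 and rose in 1 of 19 cases. F-box proteins, which choose substrates for ubiquitin, fell in 16 and rose in 4 of 55 cases, with Fbxo32 (atrogin-1) at -1.98 (SE 0.21) and the iron-sensing Fbxl5 at 1.34 (SE 0.20). Of 31 ubiquitin conjugating enzymes 11 rose and 3 fell, and median scaling left 6 rises.

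Of 52 initiation factors 18 rose and 4 fell (10 rises with quantile normalization), Eif2s2 by 0.78 (SE 0.12). Of 65 ribosome biogenesis genes 13 rose and none fell, with 7 rises under median scaling or without LPS array 3 and 8 without LPS array 4. Of 79 cytosolic ribosomal proteins 1 rose, Rps27l (0.34, SE 0.10), and 1 fell, Rpl27a (-0.40, SE 0.12), whose second probe was not called (0.40). Their median was 0.02, and Rps27l lost its call without untreated array 4 or LPS array 4. Quantile normalization called 14 falls in that family. Of 37 tRNA synthetases 11 rose and 5 fell. The cytosolic Aars, Nars and Lars rose by 0.73 (SE 0.11), 0.62 (SE 0.11) and 0.57 (SE 0.10), and the mitochondrial Fars2 fell (-0.59, SE 0.11). Chaperones rose in 14 and fell in 3 of 43 cases. Hspa5 of the endoplasmic reticulum and the co-chaperone Stip1 rose by 0.90 (SE 0.12) and 0.75 (SE 0.10), while the inducible Hspa1a fell on all 4 of its probes (-1.12, SE 0.23).

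**Figure D5:**
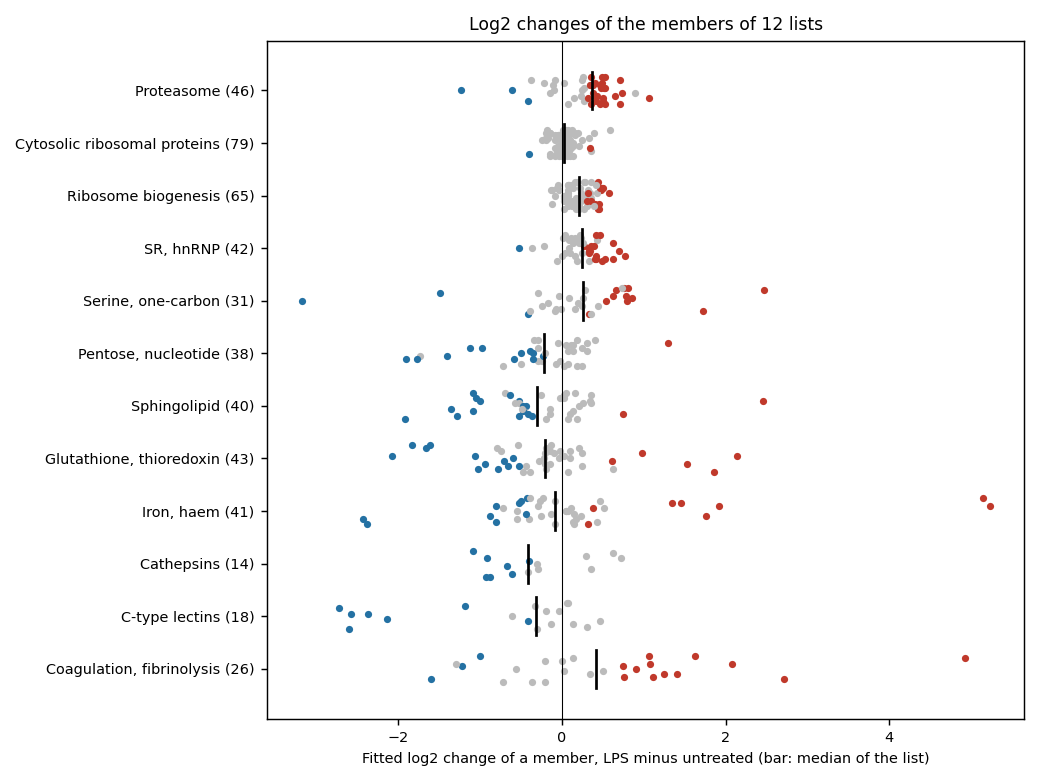
Each point is the fitted log2 change of a member of 12 lists, red where it rose, blue where it fell and grey where it was not called; the black bar is the median of the list and the number in brackets its members measured. Proteasome subunits cluster to the right of 0 (median 0.37) and cathepsins to the left (median -0.41), while cytosolic ribosomal proteins lie around 0.

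Of 31 inflammasome and pyroptosis genes 4 rose and 10 fell (median -0.29). The sensor Nlrp3 rose by 1.74 (SE 0.15) and the sensor gene Naip2 by 1.39 (SE 0.15). The adaptor Pycard (ASC) fell (-1.18, SE 0.19), as did the necroptosis kinase Ripk3 (-1.19, SE 0.13). Gsdme fell from -0.41, 0.49, 0.46 and 0.80 to -2.21, -2.47, -2.98 and -2.08 (-2.77, SE 0.24), and 1 of its 3 probes was not called. Casp1 and Gsdmd were not called (-0.47, SE 0.20 and -0.29, SE 0.16). Of 24 BCL2 family genes 5 rose and 3 fell, Bcl2a1b, a survival gene with close copies, by 1.40 (SE 0.20). Of 41 caspase and death receptor genes 11 rose and 5 fell, with Phlda1 up by 4.07 (SE 0.26) and Ier3 by 1.74 (SE 0.18).

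Numbered zinc finger genes rose in 35 and fell in 40 of 283 cases (12.4% and 14.1%), near the 14.5% and 14.9% of all features. Minichromosome maintenance genes fell in 1 of 9 cases (11.1%). Olfactory receptor features, most of them dim, rose in 49 and fell in 1 of 347 cases (14.1% and 0.288%, median 0.30), so the share of rises was near that of all features. The count of rises was 23 with normexp and reset backgrounds and 124 with array weights. Of 19 genes in common use as references none rose. Gusb fell from 3.62, 3.92, 3.65 and 3.67 to 2.91, 2.58, 2.64 and 2.66 (-1.02, SE 0.21). Hprt fell on the edge of the test (-0.35, SE 0.12, limma adjusted p = 0.0478) and lost its call in most alternatives. Actb (-0.03), Tbp (0.19), Ppia (0.20), Ywhaz (0.31), Rplp0 (0.11), Polr2a (-0.03) and the 11 others were not called.

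Among markers of other cells, Hdc, the histamine-forming enzyme of mast cells that is also known in macrophages, read 3.32, 2.87, 1.42 and 3.64 without LPS and 6.56, 6.25, 6.57 and 6.34 with it (3.62, SE 0.44, and 3.15 without untreated array 3). No other mast cell marker was called. The B cell markers Cd79b and Fcmr fell (-0.60, SE 0.21 and -0.64, SE 0.20), and each lost its call without untreated array 1, without untreated array 3 and in other alternatives. The mesothelial keratins Krt8 and Krt18 fell (-0.92 and -1.08), the endothelial Vwf fell (limma adjusted p = 0.00812) and the dendritic cell marker Ccr7 rose (0.43). The calls on the keratins and Ccr7 were lost in several alternatives and that on Vwf under both normexp settings, and Vwf was above background on 2 of 4 LPS arrays.

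For the difference in LPS change between control cells and cells labelled fld, limma called none of 17462 features (0%). The smallest adjusted p was 0.0834, and 1629 features had an unadjusted p under 0.05. Among the alternatives, normexp without a reset of extreme local backgrounds gave the fewest calls, 1095 features in place of 5143. Under it 70 of the 237 named genes that were called lost the call with the sign of their change kept. With those backgrounds reset, normexp called 4035 features.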

How the data were processed

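RNA was hybridised to 1-colour Agilent whole-mouse arrays. The authors deposited Feature Extraction 9.5.1.1 output, whose processed Cy3 intensity is background-subtracted per the file headers. The authors' deposited value table, an alternative, holds a linear ratio: each column equals that array's processed intensity divided by 1 constant that brings its median near 1, as found from the values.

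Processed intensities were taken as log2 minus each array's 75th percentile over non-control spots. Spots with an outlier flag were set missing and spots of a probe averaged. A probe was kept if in any of the 4 groups all its arrays exceeded background, and the brightest such probe stood for its gene. One mean per group was fitted over 16 arrays with limma 3.58.1 in R 4.3.3 (lmFit, eBayes), with Benjamini-Hochberg adjustment, and tested on simulated data. The number of arrays limits the precision. Symbols came from the RefSeq table of GRCm38.p6 where accession, symbol or synonym matched.

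The leading genes were the 15 largest called rises and falls above background on all 8 arrays with groups that do not overlap, and the 10 largest bounds each way. The other named genes are members of 49 lists and 32 families: up to 4 of the largest called changes each way, main receptors or first steps, reference genes and cell type markers. Some moderate members were chosen after their values were seen. Members and lists were chosen with earlier results of these data known. Alternatives covered background, scaling, filter, flags, probes, arrays fitted, weights, the replicate block and each array left out. Single-gene results of a few members are not reported here.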

Additional observations from a re-analysis of the deposited data

Results flagged for a closer look

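In 13 of 96 groups of 4 arrays, 1 array lay apart from the other 3 by Dixon's ratio, its gap to the nearest array over the range of the group above its 95% critical value. Chance flags about 1 in 20 groups, and the genes are not independent. The groups were those of genes whose array values are printed here, and of the marker sums. Some genes, such as Cma1, were printed because an array stood apart, so the count cannot be read against that rate. Untreated array 3 was the low one for Cma1 (ratio 0.971, level 3.44), F3 (0.953, level -1.67), Il6 (0.881, level -0.60), Sphk1 (0.853, level 0.38) and the summed mast cell markers (0.914, sum 19.1). It was the high one for Calcr (0.913, level -2.12) and for the summed eosinophil markers (0.832, sum 0.964).

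Among single arrays elsewhere, untreated array 1 was high for Iigp1 (ratio 0.922, level 4.28), and untreated array 2 was low for Map3k8 (0.93, level -1.61) and high for Gusb (0.833, level 3.92). LPS array 1 was low for S100a8 (0.89, level 3.09) and for the summed neutrophil markers (0.851, sum 9.17), and LPS array 4 for the summed eosinophil markers (0.937, sum 0.602).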

How the results depend on the processing

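Normexp was fitted to the raw spot means less their local backgrounds. Without a reset of extreme backgrounds it called 1095 features (498 higher, 597 lower) and moved the median change of all features by 0.12. Under it the change was positive for genes that fell: Abca9 0.20, Angpt2 0.37, Clec1b 0.48, Col3a1 0.61, Cxcl12 0.22, Kctd12b 0.05, Klrk1 0.49, Krt18 0.22, Krt8 0.16, Mettl7a2 0.20, Oit3 0.45, Psma8 0.02 and Vwf 0.62. Rps27l, which rose, stood at -0.17. With local backgrounds over 10 times the array's median set to that median, normexp called 4035 features (2086 higher, 1949 lower). The median change then moved by 0.07. With no filter on dim probes Oit3 stood at 0.05, another probe taking its place. The cause of these changes of sign was not tested. Requiring a 2-fold change left 1527 calls (772 higher, 755 lower). Leaving out single arrays gave 4163 to 4978 calls, 1989 to 2530 higher and 2094 to 2448 lower. The replicate block gave 4930 calls. Same-numbered arrays correlated in their deviations at 0.16, 0.09, 0.26 and 0.09. Untreated arrays 2, 3 and 4 each correlated best with the LPS array of their number, and untreated array 1 with LPS array 2 (0.21). The labels do not say what a number marks, so the main fit did not take the numbers as pairs. For the difference between control and fld cells, quantile normalization called 13 features, array weights 11, median scaling and the deposited values 7 each, and leaving out single arrays gave 0 to 1 (1 without untreated array 4 and 1 without LPS array 3). Of the 237 named genes that were called, 152 kept the call in every alternative that gave a value for them. Genes not well above background on all arrays of a group have only bounds.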
